A study of Mus musculus with 8 samples.

Results

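Transcripts of 10 genes for ubiquitin ligases linked to muscle atrophy (Fbxo32, Trim63, Trim54, Trim55, Fbxo30, Fbxo21, Fbxo31, Trim32, Traf6 and Nedd4) were measured in the skeletal muscle of 8 immobilized mice treated with K14Q MOTS-c. The genes were chosen by name as ligases known from work on muscle wasting, and they are 10 of the 55487 gene identifiers in the data. The mice were male C57BL/6J animals aged 10 weeks. Both hindlimbs were held in casts for 8 days, during which K14Q MOTS-c, a form of the mitochondrial peptide MOTS-c, was injected intraperitoneally at 15 mg/kg/day in 2 injections per day. All 8 mice shared the immobilization and the peptide, and libraries of untreated, non-immobilized or wild-type MOTS-c mice were not analysed here, so no value below is an effect of casting or of the peptide. The sample labels name the vastus lateralis as the muscle, whereas the study's design text names the gastrocnemius, and the data were not used to choose between them.

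A ubiquitin ligase, or E3, brings a ubiquitin-loaded E2 enzyme to a protein, and chains of ubiquitin then send that protein to the proteasome. In muscle that is unused, denervated or starved, transcription factors of the FoxO family switch on the genes for the ligases MuRF1 (Trim63) and atrogin-1 (Fbxo32), and the proteins of the sarcomere are taken apart. Both genes are widely used as transcript markers of atrophy.

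Each library held between 23985356 and 33012497 counts, and the 10 genes all passed the minimum of 10 counts per library, as did 15135 genes in all. Together the 10 genes took 0.351% to 0.696% of a library's counts. The summed level of 7 fast-fibre marker genes was 1860745 to 3745778 normalized counts per mouse, against 2516 to 6279 for 9 macrophage genes and 905 to 6158 for 6 tendon genes, and none of the 12 marker lists held a gene at 0 in every library. These are bulk samples, in which fewer cells of a type and less RNA per cell cannot be told apart.

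Promoter bases are shown for 3 members: Trim63, the most abundant per kb, its relative Trim54, and Fbxo31, the member that varied most between mice. They are the 250 bases before the RefSeq start on GRCm38.p6, printed 5′ to 3′ on the strand of the gene. Capitals mark a match, on either strand, to the FoxO core GTAAACA or to the TATA box TATAAA. For Trim63 the window is chr4:134314870-134315119 on the plus strand, for Trim54 it is chr5:31116362-31116611 on the plus strand, and for Fbxo31 it is chr8:121578807-121579056 on the minus strand.
Trim63: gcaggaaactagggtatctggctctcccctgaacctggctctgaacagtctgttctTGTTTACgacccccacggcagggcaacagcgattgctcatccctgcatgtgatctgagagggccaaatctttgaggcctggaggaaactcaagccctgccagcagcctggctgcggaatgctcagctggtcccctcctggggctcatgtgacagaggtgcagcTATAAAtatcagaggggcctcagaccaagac
Trim54: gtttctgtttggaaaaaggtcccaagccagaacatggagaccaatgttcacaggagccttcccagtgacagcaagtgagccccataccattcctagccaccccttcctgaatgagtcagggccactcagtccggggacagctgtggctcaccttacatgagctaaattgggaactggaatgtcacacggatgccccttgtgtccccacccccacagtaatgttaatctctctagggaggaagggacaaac
Fbxo31: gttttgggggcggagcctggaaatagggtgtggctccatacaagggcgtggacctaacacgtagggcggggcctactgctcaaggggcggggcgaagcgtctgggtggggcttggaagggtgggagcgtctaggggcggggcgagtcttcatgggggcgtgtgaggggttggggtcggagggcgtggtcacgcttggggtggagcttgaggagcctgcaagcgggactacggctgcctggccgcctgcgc

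The table held 9 promoter entries for 8 members, all but Fbxo32 and Trim55, whose promoters were not searched. Of these 9, only that of Trim63 held the FoxO core, with its first base at -194 from the start, and only that of Trim63 held TATAAA, at -31. Over all 32851 promoters of that length in the table, 3.17% held the FoxO core and 12.4% held TATAAA. The E-box letters CANNTG, which read the same on both strands, were in 5 of the 9 entries and in 66.2% of all promoters. A match is a run of letters and not a measured binding site, and the 2 runs in capitals in the Trim63 promoter do not overlap.

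Trim63 and Fbxo32 had the highest levels per kb of the 10 ligases. Levels are given as normalized counts, in which the depth of each library has been scaled out by the authors, and are compared between genes as normalized counts per kb of annotated exon. Per kb, Trim63 averaged 15442 ± 3818 (SD, n = 8) and ranked 76 of 15100 genes, and Fbxo32 averaged 9019 ± 1892 and ranked 107. Together they made up 69.7% to 79.7% of the summed per-kb level of the 10 genes in a mouse. The lowest member, Trim32, averaged 54.4 ± 4.83 per kb and ranked 9277.

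**Figure D1:**
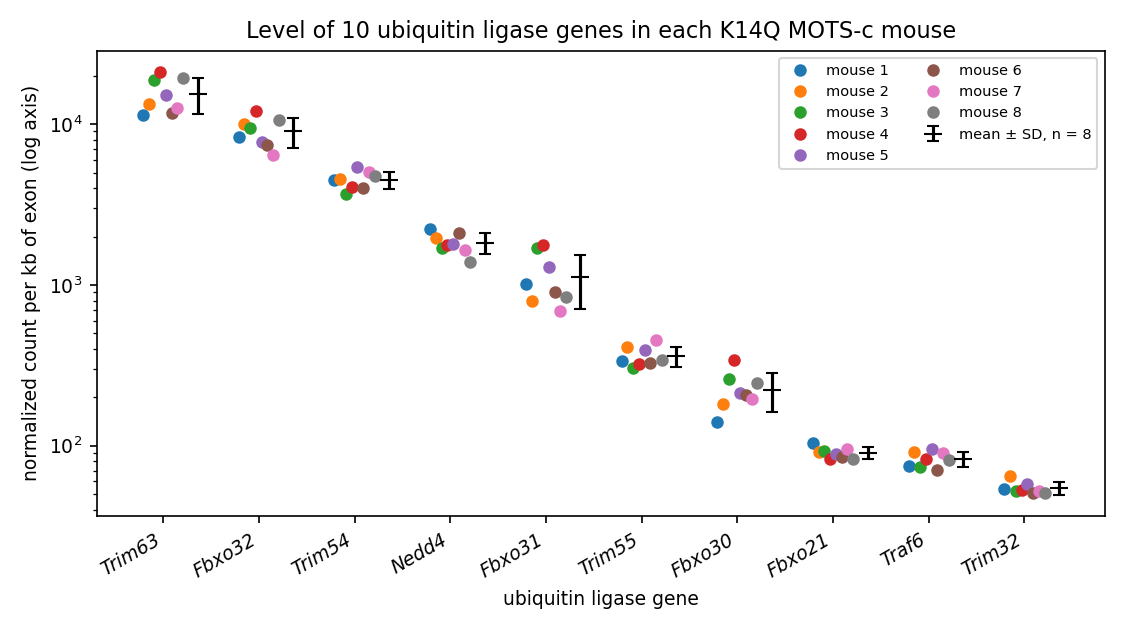
Normalized count per kb of exon (log axis) of the 10 ubiquitin ligase genes, ordered by mean, with 1 point per mouse coloured by replicate and a bar for the mean ± SD of 8 mice. Trim63 and Fbxo32 sit at the top with means of 15442 and 9019, and Trim32 is lowest at 54.4.

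The first group are the MuRF proteins, RING-finger TRIM ligases that bind titin and other parts of the sarcomere. Trim63 (MuRF1, ENSMUSG00000028834, chr4:134315120-134329629, plus strand), which marks myosin heavy chain and other thick-filament proteins for breakdown, had a lowest value of 32456 normalized counts in mouse 1, a median of 40494 and a highest value of 60044 in mouse 4. Its mean was 43886 ± 10851 (SD, n = 8), a coefficient of variation of 24.7%. Mice 3, 4 and 8 were the high ones, between 53702 and 60044, and the other 5 lay between 32456 and 43240.

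Trim54 (MuRF3, ENSMUSG00000062077, chr5:31116712-31137630, plus strand), which associates with microtubules and the Z-disc, ran from 5316 normalized counts in mouse 3 through a median of 6488 to 7761 in mouse 5. Trim55 (MuRF2, ENSMUSG00000060913, chr3:19644474-19692421, plus strand), a partner of titin at the M-band, ran from 810 in mouse 3 through 902 to 1203 in mouse 7. On the authors' scale mouse 3, which was among the 3 highest for Trim63, was therefore the lowest for both of its relatives. The factor dividing its counts was 1.20 there, 1.18 with edgeR's TMM factors and 1.04 when scaled to library totals, so its place depends on the scaling. Of the per-kb level of the 3 MuRF genes in a mouse, Trim63 made up 69.6% to 82.9%, Trim54 15.8% to 27.9% and Trim55 1.27% to 2.51%. Over 382 bases, or 26.6% of its exons, Trim54 overlaps the antisense gene Gm15469, which averaged 4.95 normalized counts, and the use of strand in counting is not given in the sources used here.

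The second group are F-box proteins, which hold the substrate in SCF ligases built on a cullin, Skp1 and Rbx1. Fbxo32 (atrogin-1 or MAFbx, ENSMUSG00000022358, chr15:58175879-58214932, minus strand), which targets the translation factor eIF3f and MyoD, ran from 45049 normalized counts in mouse 7 through a median of 62175 to 84735 in mouse 4, with a mean of 62917 ± 13200 (SD, n = 8). Mice 4 and 8 were highest and mice 6 and 7 lowest, and the top value was 1.88 times the bottom one. Its exons share 186 bases, 2.67% of their length, with the antisense gene Gm15943, whose highest value in any mouse was 24.1 normalized counts.

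Fbxo31 (ENSMUSG00000052934, chr8:121549440-121578806, minus strand), known as a ligase for cyclin D1, varied most of the 10 genes, from 3754 normalized counts in mouse 7 through 5266 to 9660 in mouse 4. Mice 3 and 4 stood at 9291 and 9660 and mouse 5 at 7047, whereas the other 5 lay at or under 5554. Fbxo30 (MUSA1, ENSMUSG00000047648, chr10:11281330-11298052, plus strand), an F-box gene that BMP signalling holds down in muscle, ran from 729 in mouse 1 through 1093 to 1770 in mouse 4. Fbxo21 (SMART, ENSMUSG00000032898, chr5:117976730-118010201, plus strand), another FoxO-dependent F-box gene of wasting muscle, was among the steadiest, from 458 in mouse 8 through 500 to 578 in mouse 1. Within the 4 F-box genes, Fbxo32 made up 82.2% to 90.3% of the per-kb level, Fbxo31 7.11% to 14.7%, Fbxo30 1.46% to 2.63% and Fbxo21 0.577% to 1.29%.

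The remaining members belong to neither group. Nedd4 (ENSMUSG00000032216, chr9:72662346-72749852, plus strand), a HECT-type ligase that takes the ubiquitin onto itself before passing it on, ran from 15301 normalized counts in mouse 8 through 19600 to 24269 in mouse 1. Traf6 (ENSMUSG00000027164, chr2:101678429-101701669, plus strand), a signalling ligase that builds lysine-63 chains upstream of NF-kB, ran from 556 in mouse 6 through 649 to 747 in mouse 5. Trim32 (ENSMUSG00000051675, chr4:65604986-65616238, plus strand), a ligase for actin and desmin whose loss causes a muscular dystrophy, ran from 164 in mouse 8 through 169 to 210 in mouse 2. For Trim32 the counting error alone gave a coefficient of variation of 7.59% against the 8.87% observed, so that little of its spread was beyond counting.

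The order of the per-kb levels was tested between neighbours within the mice, with a two-sided exact permutation test that flips the signs of the 8 differences and cannot go below p = 0.0078. In the order Trim63, Fbxo32, Trim54, Nedd4, Fbxo31, Trim55, Fbxo30, Fbxo21, Traf6 and Trim32, 8 of the 9 neighbour pairs differed at an unadjusted exact p under 0.05. Trim63 was above Fbxo32 in 8 of 8 mice, by a mean of 0.77 on the log2 scale (exact p = 0.0078), although the ranges of the genes overlapped across mice. The per-kb ratio of Trim63 to Fbxo32 ran from 1.33 in mouse 2 through 1.77 to 2.0 in mouse 3.

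Fbxo32 was above Trim54 in 8 of 8 mice by 0.98 log2 units, with no overlap of the ranges. Nedd4 was above Fbxo31 in 7 of 8 mice by 0.77 log2 units (exact p = 0.0156), and Trim55 was above Fbxo30 in 7 of 8 mice by 0.73 log2 units (exact p = 0.0156). Fbxo21 and Traf6 were the pair not told apart: Fbxo21 was the higher in 6 of 8 mice, by 0.14 log2 units (exact p = 0.125). When the length of the longest transcript was used in place of all annotated exons, the order was the same, the step between Fbxo21 and Traf6 was 0.27 log2 units in 8 of 8 mice (exact p = 0.0078), and that between Trim54 and Nedd4, which has many exons outside its longest transcript, shrank from 1.31 to 0.31. On that scale Trim63 was above Fbxo32 by 1.36 in place of 0.77 log2 units, and Nedd4 above Fbxo31 by 1.43 in place of 0.77.

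The spread between mice differed among the 10 genes. After the counting error was taken off, the median coefficient of variation was 14.2% for the members and 13.1% for all genes tested, and 6 of 10 members were above the latter. Fbxo31 varied more than 96.0% of the genes tested, Fbxo30 more than 89.1%, Trim63 more than 86.3% and Fbxo32 more than 79.3%. At the other end, Trim32 varied more than only 8.19% of genes and Fbxo21 more than 15.2%. Mouse 4 had the highest value for Fbxo32, Trim63, Fbxo30 and Fbxo31. It also had the shallowest library, the highest summed macrophage markers (6279 normalized counts) and the highest summed denervation and disuse markers (14980, of which Gadd45a alone gave 10551). The part of these measures in the values of the 4 genes was not tested.

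**Figure D2:**
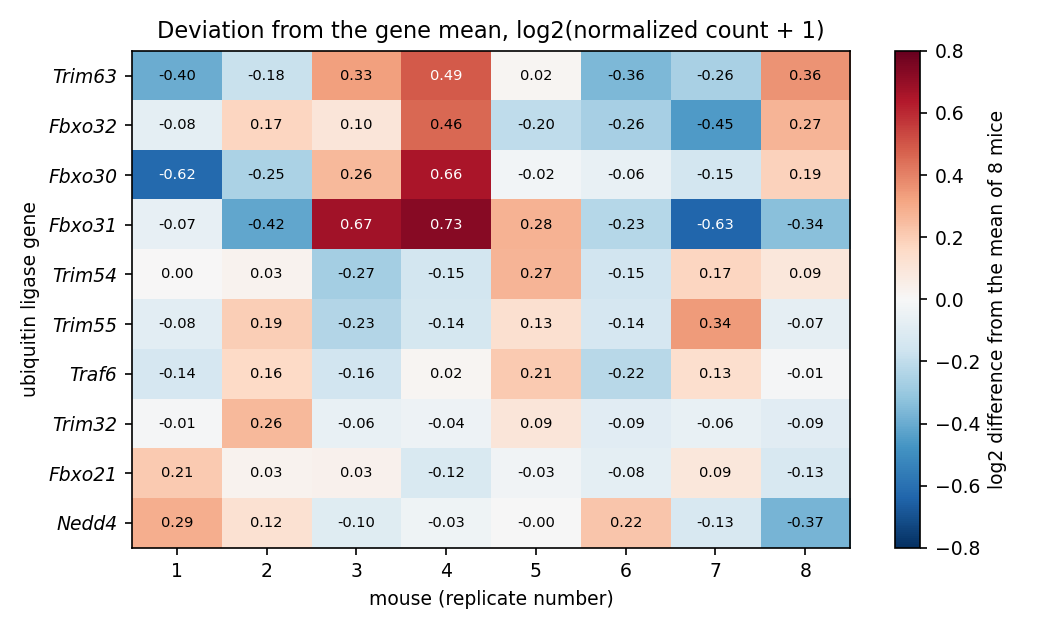
Difference of each mouse from the mean of the 8 mice in log2(normalized count + 1), for each ligase gene (rows) and mouse (columns), with red for higher and blue for lower values. Mouse 4 is the highest of the 8 in Trim63, Fbxo32, Fbxo30 and Fbxo31, by 0.46 to 0.73 above the mean, while the rows from Trim54 to Trim32 show it between -0.15 and 0.02.

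Whether the ligases varied together from mouse to mouse was read from all 45 pairs of members, as Pearson's r of log2(normalized count + 1) over 8 mice with exact permutation p-values that are not adjusted. The r ran from -0.79 to 0.88 with a median of -0.05. It was positive in 20 pairs and negative in 25, and 6 pairs had an exact p under 0.05. The share of pairs of other genes that reach this is not given here. For scale, the limma slopes below had an unadjusted p under 0.05 for 11.7% of all genes on Trim63 and for 3.97% on Fbxo32. The tally of signs depended on the scaling: with counts scaled to library totals, r was positive in 35 pairs and negative in 10, with a median of 0.38. With edgeR's TMM factors, 2 pairs turned sign.

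Of the 5 positive pairs with an exact p under 0.05, 2 held Trim63. Trim63 and Fbxo30 had r = 0.88 (exact p = 0.00099, Spearman's rho = 0.88 with exact p = 0.0072, n = 8), and r was 0.80 without the 2 mice farthest from the median Trim63 level. In each pair, the 2 mice left out were those farthest from the median of the gene that comes first in the opening list of members. Fbxo32 and Trim63, the classical pair, had r = 0.75 (exact p = 0.038, rho = 0.74 with exact p = 0.046, n = 8), and r was 0.62 without the 2 mice farthest from the median Fbxo32 level. Without mouse 4 the r of that pair was 0.62 (exact p = 0.14), and without mouse 2 it was 0.84. Trim63 and Fbxo31 had r = 0.65 (exact p = 0.088, rho = 0.45 with exact p = 0.267), which did not pass. Nor did Fbxo30 and Fbxo31 (r = 0.62, exact p = 0.098), Fbxo32 and Fbxo30 (0.58, exact p = 0.130) or Fbxo32 and Fbxo31 (0.49, exact p = 0.212), and without mouse 4 these fell to 0.37, 0.27 and 0.21. For Fbxo32 and Fbxo31, r was -0.20 without the 2 farthest mice.

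The other 3 positive pairs were among Trim54, Trim55 and Traf6. Trim54 and Trim55 had r = 0.78 (exact p = 0.024, rho = 0.86 with exact p = 0.0107, n = 8, and 0.76 without the 2 farthest mice). Traf6 went with Trim55 at r = 0.81 (exact p = 0.0195, rho = 0.71 with exact p = 0.058, and 0.81 without the 2 farthest mice) and with Trim54 at r = 0.77 (exact p = 0.029, rho = 0.81 with exact p = 0.022, and 0.59 without the 2 farthest mice). Trim32 was also positive with these 3 genes but did not pass, at most with Traf6 (r = 0.62, exact p = 0.094, and 0.04 without the 2 farthest mice). Between Trim63 and its relatives r was -0.27 for Trim54 (exact p = 0.507) and -0.43 for Trim55 (exact p = 0.283), and with library totals it was 0.27 and 0.02.

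**Figure D3:**
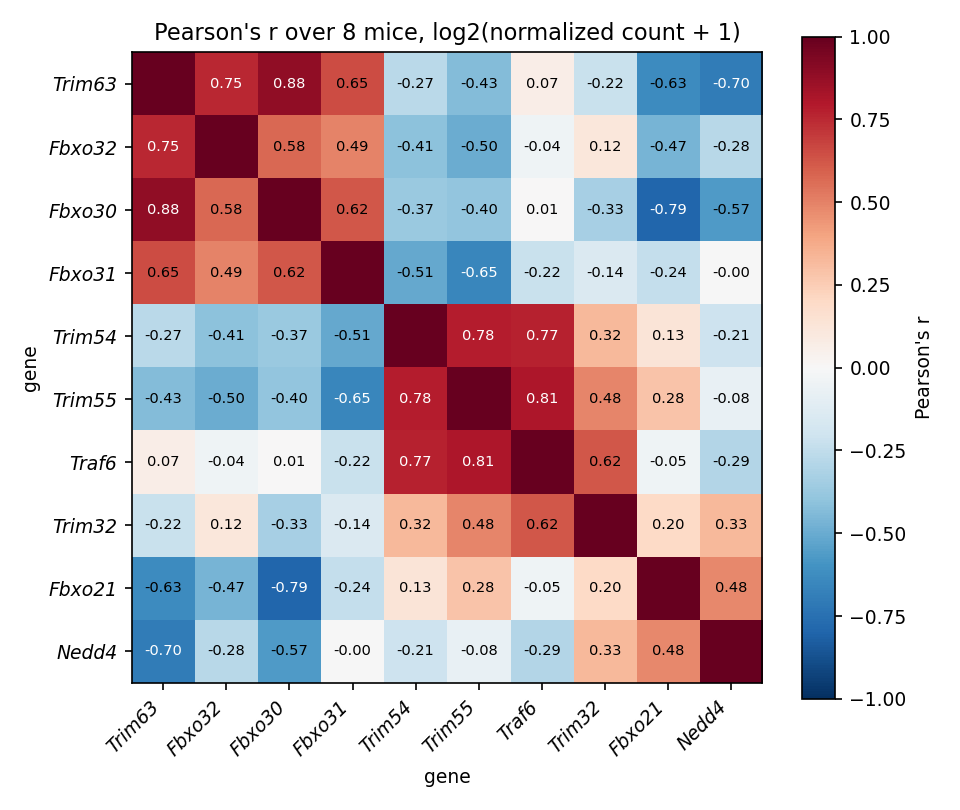
Pearson's r of log2(normalized count + 1) over 8 mice for every pair of the 10 ligase genes, from blue (-1) to red (1). The order of the genes was chosen after the values were seen, the highest r is that of Trim63 and Fbxo30 at 0.88, and the 3 pairs among Trim54, Trim55 and Traf6 are at 0.77 to 0.81.

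The single negative pair with an exact p under 0.05 was Fbxo30 and Fbxo21 (r = -0.79, exact p = 0.021, rho = -0.64 with exact p = 0.096, n = 8), and r was -0.39 without the 2 farthest mice. Negative values changed little with edgeR's TMM factors but much with library totals. With TMM factors, Fbxo30 and Fbxo21 had r = -0.75, Trim63 and Nedd4 had r = -0.69, and 2 of the 45 pairs turned sign. With counts scaled to the library total in place of the authors' size factors, Fbxo30 and Fbxo21 had r = 0.25. On that scale the pair of Trim63 and Nedd4 moved from -0.70 (exact p = 0.054) to -0.08, and 19 of the 45 pairs turned sign. Since most pairs were positive on that scale, the sign of a positive pair there says little, and the 5 positive pairs with an exact p under 0.05 had r of 0.93 for Trim63 and Fbxo30, 0.86 for Fbxo32 and Trim63, 0.70 for Trim55 and Traf6, 0.67 for Trim54 and Traf6 and 0.52 for Trim54 and Trim55.

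The slope of every gene on the level of Trim63 or of Fbxo32 was then fitted with limma across all 15134 other genes, as log2 change per log2 unit. On Trim63, 5 genes passed an adjusted p under 0.05 (0.033% of those tested), 3 with a positive slope (0.0198%) and 2 with a negative one (0.0132%). None of the 5 was a member, and 1769 genes had an unadjusted p under 0.05 (11.7%). Of the 9 other members, 3 had a positive slope with an unadjusted p under 0.05, where 6.54% of all genes did, and none a negative one, where 5.15% did. The slope of Fbxo30 was 0.96 ± 0.19 (SE, limma unadjusted p = 0.0004, adjusted p = 0.114), that of Fbxo31 was 0.94 ± 0.35 (limma adjusted p = 0.336) and that of Fbxo32 was 0.65 ± 0.25 (limma adjusted p = 0.345). Without mouse 4, limma left an unadjusted p under 0.05 for Fbxo30 with a positive slope (limma unadjusted p = 0.0061, adjusted p = 0.523) and gave one for Nedd4 with a negative slope (-0.59, limma unadjusted p = 0.029, adjusted p = 0.546). DESeq2 called Fbxo30 (DESeq2 adjusted p = 0.0030) and no other member, limma called Fbxo30 without mouse 8 (slope 1.05, limma adjusted p = 0.0496), and with library totals limma called Fbxo30, Fbxo31 and Fbxo32 (limma adjusted p = 0.015 to 0.049), on a scale where the median slope of all genes was 0.24.

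On Fbxo32, limma called 0 of 15134 genes (0%), as did edgeR, whereas DESeq2 called 16, and 601 genes (3.97%) had an unadjusted p under 0.05. Trim63 was the only member among these, with a slope of 0.87 ± 0.31 (SE, limma adjusted p = 0.9999), where 2.07% of all genes were positive and 1.90% negative.

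The gene called on Trim63 that belongs to the lists of pathway genes was Gabarapl1, an autophagosome protein of the LC3 family and a known FoxO target. It ran from 1444 normalized counts in mouse 1 through a median of 1939 to 3172 in mouse 4, with mice 3, 4 and 8 again the highest, and its slope was 1.28 ± 0.157 (SE, limma adjusted p = 0.036). The other called genes, named after their values were seen, were H2-K2 (slope 1.76) and D230025D16Rik (1.58), which rose with Trim63, and Pcp4l1 (-1.46) and Ky (-1.66), which fell (limma adjusted p = 0.036 to 0.048). H2-K2 belongs to a family of near-identical histocompatibility genes, and its count is uncertain for that reason. Ky encodes a muscle protein of the Z-disc region needed for muscle growth.

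How far the calls reached depended on single mice. No gene was called on Trim63 without mouse 1, 2, 3, 4 or 7, whereas 8 were called without mouse 5, 5 without mouse 6 and 113 without mouse 8. The split by direction also moved: with TMM factors 3 calls were positive and 0 negative, so that neither Pcp4l1 nor Ky was called, with library totals 575 were positive and 17 negative, and without mouse 8, 52 were positive and 61 negative.

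Other FoxO targets of atrophy, a list chosen with earlier results of these data known, had positive slopes on Trim63. All 19 tested had a positive slope on Trim63, where 50.3% of all genes did, their median slope was 0.53 against 0.0023 for all genes, and 10 of 19 had an unadjusted p under 0.05, 1 of them called. Cdkn1a, the cell-cycle inhibitor p21, had a slope of 1.005 ± 0.231 (SE, limma adjusted p = 0.177), and Ctsl, the lysosomal protease cathepsin L, had 1.27 ± 0.295 (limma adjusted p = 0.179). The count was 19 of 19 under every alternative and with each mouse left out, and with library totals, where the median slope of all genes was 0.24, 19 of 19 lay above that median. By contrast, the number with an unadjusted p under 0.05 ran from 7 without mouse 4 to 13. On Fbxo32, 15 of the 19 had a positive slope, where 49.4% of all genes did, with a median of 0.35, and 13 did without mouse 4. The list leaves out the members, of which 4 of the 9 others had a positive slope on Trim63. Fbxo21, named above as FoxO-dependent, had a slope of -0.21 on Trim63 (limma unadjusted p = 0.198).

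**Figure D4:**
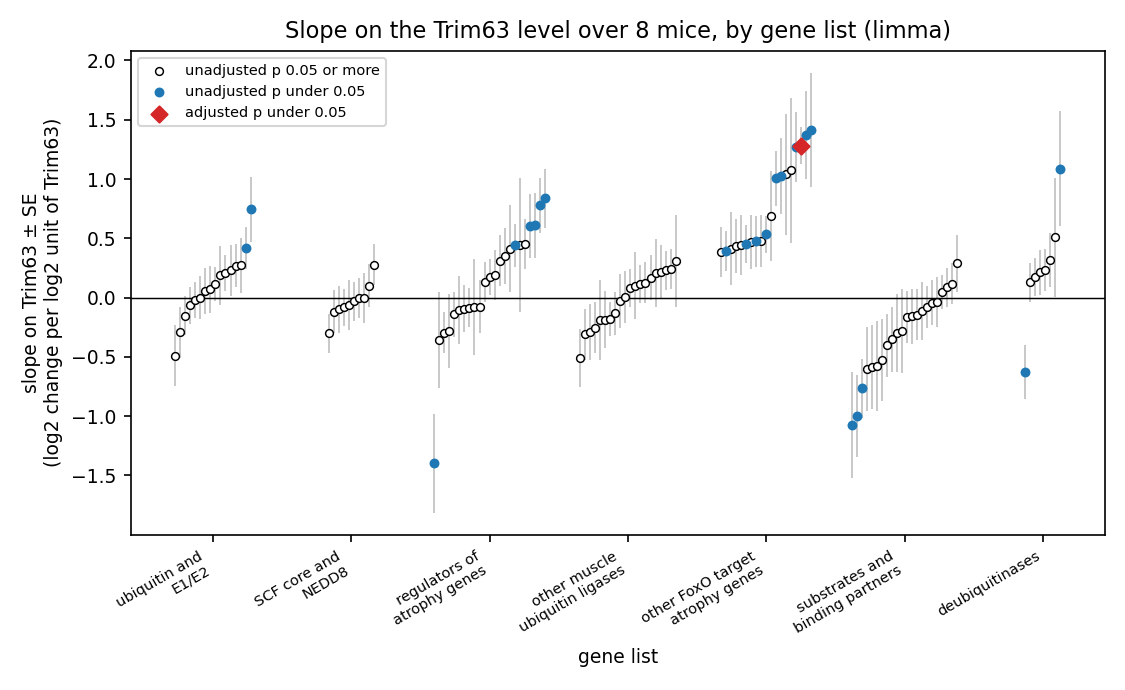
Slope of each gene on the Trim63 level over 8 mice, as log2 change per log2 unit of Trim63 with its SE, for 7 lists of pathway genes, with open circles for an unadjusted limma p of 0.05 or more, blue for one below it and a red diamond for an adjusted p under 0.05. All 19 other FoxO targets lie above 0, and the red diamond is Gabarapl1 at 1.28, while 18 of the 22 substrates and binding partners lie below 0.

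Upstream of the ligases, ubiquitin is activated by an E1 enzyme and passed to E2 conjugating enzymes. Of 16 genes of ubiquitin, its activating enzyme and its conjugating enzymes, 10 had a positive slope on Trim63 and none was called. Rps27a, which encodes ubiquitin fused to a ribosomal protein, had a slope of 0.42 (limma unadjusted p = 0.037), and Ube2g1, a conjugating enzyme, had 0.56 on Fbxo32 (limma unadjusted p = 0.046). Ubiquitin genes share coding sequence, so the split of reads among them is uncertain.

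**Figure D5:**
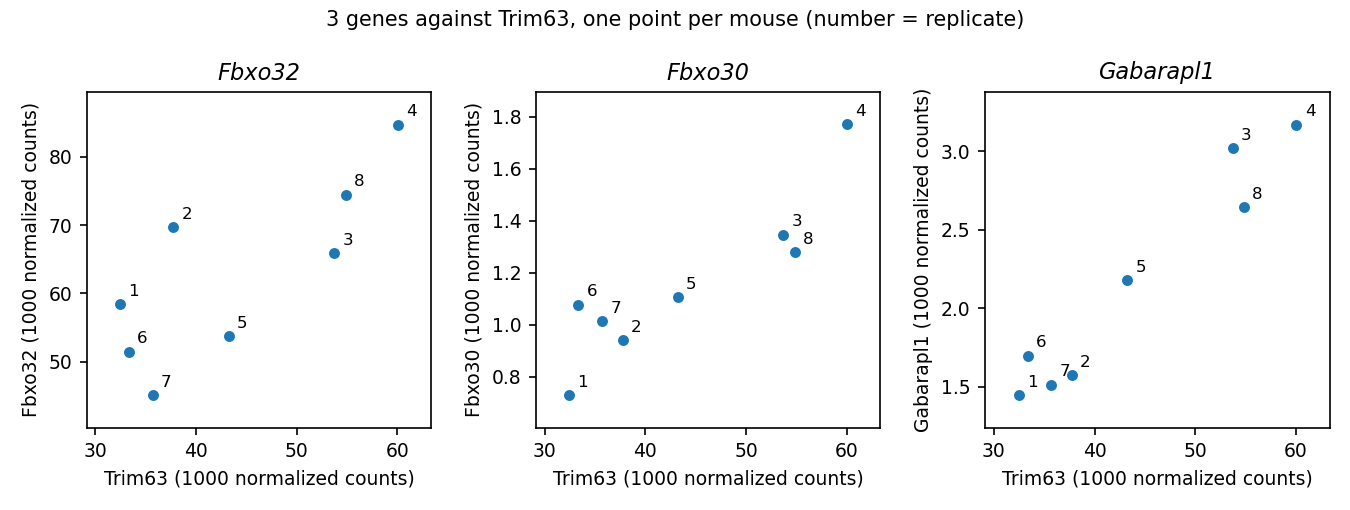
Normalized counts, in the multiples given on the axes, of Fbxo32, Fbxo30 and Gabarapl1 (vertical axes, which do not start at 0) against Trim63 (horizontal axes), with 1 point per mouse numbered by replicate. Mice 3, 4 and 8 lie at the right in every panel, and Gabarapl1 runs from 1444 to 3172 normalized counts.

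Of 10 genes of the SCF core and of NEDD8, which activates the cullin, 3 had a positive slope on Fbxo32 and 2 on Trim63, and limma gave no unadjusted p under 0.05 for either. With a mouse left out the count was 1 to 6 on Fbxo32, the highest without mouse 7, and 2 to 5 on Trim63, the highest without mouse 3, 4 or 7, and 1 gene had a positive slope with an unadjusted p under 0.05 on Fbxo32 without mouse 8 and 1 a negative one without mouse 6. Dcun1d1, which helps attach NEDD8, had the smallest p, with a slope of -0.37 ± 0.193 on Fbxo32 (SE, limma unadjusted p = 0.077). Among 20 tested genes of other muscle ligases, 11 had a positive slope on Trim63 and 6 on Fbxo32, again with no unadjusted p under 0.05. With a mouse left out these were 8 to 12 and 3 to 10. The nearest was Asb2, a muscle cullin adaptor, at -0.51 ± 0.244 on Trim63 (limma unadjusted p = 0.062).

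Of 23 regulators of the atrophy genes, 13 had a positive slope on Trim63 and 15 on Fbxo32, and limma called none. Hdac4, a deacetylase induced by denervation, had a slope of 1.01 ± 0.237 on Fbxo32 (SE, limma unadjusted p = 0.0013, adjusted p = 0.878) and ran from 1942 normalized counts in mouse 1 to 4015 in mouse 4. Klf15, a glucocorticoid-induced factor that acts on both ligase genes, had 0.84 on Trim63 (limma unadjusted p = 0.0061) and 0.82 on Fbxo32 (limma unadjusted p = 0.030). Myod1, the myogenic factor, had -1.40 ± 0.418 on Trim63 (SE, limma unadjusted p = 0.0064, adjusted p = 0.255). Of the FoxO genes themselves, named for their role, Foxo3 had a slope of 0.44 on Trim63 (limma unadjusted p = 0.034), Foxo1 had 0.35 (limma unadjusted p = 0.163) and Foxo4 had -0.09 (limma unadjusted p = 0.609). The number of regulators with a positive slope and an unadjusted p under 0.05 on Trim63 was 5 of 23, where 6.54% of all genes did so, and it was 0 without mouse 4.

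Transcripts of proteins that the ligases are known to bind had mostly negative slopes. Of 22 substrates and binding partners, 4 had a positive slope on Trim63 and 2 on Fbxo32, where 50.3% and 49.4% of all genes did, with a median of -0.22 on both. On Trim63, 3 had an unadjusted p under 0.05, all with a negative slope, where 5.15% of all genes did. The count with a positive slope was 8 on Trim63 without mouse 3 and 7 without mouse 4, and 9 on Fbxo32 without mouse 4, and the number with a negative slope and an unadjusted p under 0.05 on Trim63 was 0 without mouse 1 and 9 without mouse 8. The 3 were Myh2, the IIa myosin heavy chain, at -0.76 ± 0.249 (SE, limma adjusted p = 0.282), Mybpc2, the fast myosin-binding protein C, at -0.996 ± 0.345 (limma adjusted p = 0.308) and Myh4, the IIb myosin heavy chain, at -1.07 ± 0.447 (limma adjusted p = 0.387). All 3 were lowest in mouse 3 and highest in mouse 1, and Myh4 ran from 839797 to 2063673 normalized counts. Slopes on Trim63 were negative for 7 of 7 fast-fibre and 7 of 7 slow-fibre markers as well, lists that share genes with the substrates. With library totals, 11 of the 22 substrates had a positive slope on Trim63, although 4 lay above the median slope of all genes, 0.24 on that scale, as on the authors' scale.

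Of 8 deubiquitinases, which take ubiquitin off, 7 had a positive slope on Trim63, where 50.3% of all genes did, and none was called. Usp2, a clock-regulated one, had a slope of -0.84 ± 0.240 on Fbxo32 (SE, limma unadjusted p = 0.0048) and -0.63 on Trim63 (limma unadjusted p = 0.019). Uchl1 had 1.09 ± 0.484 on Trim63 (limma unadjusted p = 0.046) and Atxn3 had 0.42 on Fbxo32 (limma unadjusted p = 0.059).

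Markers of denervation and disuse had positive slopes on both genes for 6 of 6 tested, where 50.3% of all genes did on Trim63 and 49.4% on Fbxo32. Of the 6, 3, Runx1 and Gadd45a included, had an unadjusted p under 0.05 on Trim63, where 6.54% of all genes did with a positive slope. Runx1, a factor induced when muscle loses its nerve, ran from 409 normalized counts in mouse 1 through 671 to 1401 in mouse 4 and had a slope of 1.22 ± 0.321 on Trim63 (SE, limma unadjusted p = 0.0028, adjusted p = 0.211). Gadd45a is also counted among the FoxO targets. The summed level of the list was 4198 normalized counts in mouse 5 to 14980 in mouse 4, of which Gadd45a alone gave 2303 and 10551. Without mouse 4, the count with a positive slope was 4 of 6 on Trim63 and 2 of 6 on Fbxo32.

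Measures of the tissue and library were set beside Fbxo32 and Trim63 in 28 relations over 8 mice, of 12 marker scores, the library total and the share of counts taken by the 10 most abundant genes. None passed Benjamini-Hochberg adjustment, and the smallest was Trim63 against the share of the 10 most abundant genes, at r = -0.81 (exact permutation p = 0.0192, adjusted p = 0.537, rho = -0.79 with exact p = 0.028, and -0.74 without the 2 mice farthest from the median share). That share ran from 18.8% in mouse 3 to 26.2% in mouse 1, the latter also the mouse with the least Trim63. The fast-fibre marker Myh4 was likewise lowest in mouse 3 (839797 normalized counts) and highest in mouse 1 (2063673), so the relation need not be separate from the fibre lists. Fbxo32 against the library total had r = -0.68 (exact p = 0.056, adjusted p = 0.658, rho = -0.60 with exact p = 0.132, and -0.35 without the 2 mice farthest from the median total). All 9 macrophage markers had a positive slope on Fbxo32, with a median of 0.58, but 4 of 9 did without mouse 7 and 6 of 9 without mouse 4. Without mouse 8, 7 of the 9 had an unadjusted limma p under 0.05, against 0 with all mice, and the r of Fbxo32 with the macrophage score, 0.42 with all mice, was 0.80 without mouse 8 and 0.03 without mouse 7, none of which passed adjustment. On Trim63, 4 of 9 had a positive slope, from 1 without mouse 4 or 7 to 9 without mouse 8. With library totals 6 of 9 lay above the shifted median of all genes, against 4 on the authors' scale. Cd163, a scavenger receptor, had the smallest p on Fbxo32 among them, with a slope of 1.07 ± 0.529 (SE, limma unadjusted p = 0.068), and their summed level was 2516 to 6279 normalized counts per mouse. Slopes on Trim63 were positive for 0 of 8 fibroblast, 0 of 5 smooth muscle and pericyte, 0 of 4 adipocyte and 1 of 5 tendon markers tested (median -1.39 for tendon), and for 5 of 5 blood markers. With library totals, 2 of the 8 fibroblast markers, 1 of the 5 tendon markers and 5 of the 5 blood markers lay above the median slope of all genes, and 0 of the smooth muscle and adipocyte markers did. Without mouse 8, 5 of 8 fibroblast markers had a positive slope, and without mouse 1 or 3, 3 of 5 blood markers did. The summed level of the blood markers ran from 7060 to 28320 normalized counts per mouse, against 10294 to 19186 for the fibroblast list. The part of these measures in the slopes above, those of the FoxO targets and substrates included, was not tested.

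The genes most like Fbxo32 over the 8 mice, by Pearson's r among the genes tested, were Nfe2l2 (r = 0.95), Zfp932 (0.95), Zfp874a (0.95), Terf1 (0.94) and Gm15446 (0.94), and the most opposed were Tmem184b (-0.97), Kcnj12 (-0.97) and Pde6d (-0.94). For Trim63 they were the pseudogene Gm5576 (r = 0.97), Gabarapl1 (0.97), Ddx18 (0.97), Cnppd1 (0.96) and Shld1 (0.96), against A730017L22Rik (-0.98), Asdurf (-0.97) and Zfp607a (-0.97). These are the ends of 15134 correlations over 8 mice and are given as a description.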

How the data were processed

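Per the labels and the study's methods, poly-adenylated RNA of 8 mice was sequenced on an Illumina NextSeq. The authors checked and trimmed the reads (FastQC, fastp), mapped them with STAR to GRCm38.p6, used summarizeOverlaps for the gene counts and DESeq2 for the normalization. The annotation release, the strand setting and the rule for reads on several genes are not given in the sources used here. The deposited values are a signal and no longer raw counts: each library had been divided by its own size factor, and undoing this gave whole reads, within 0.01 of a read, for 100% of values. Recovered totals were 23985356 to 33012497 counts per library, and size factors 0.906 to 1.20. The 8 libraries are the single group of the labels, and no pair of the 28 was alike within counting noise. The p-values measure the spread between these mice.

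GENCODE M21 (GRCm38) held 55141 of the 55487 identifiers and gave symbols, positions and exon lengths. RefSeq gave promoters for 8 members. Slopes on log2(Fbxo32 + 1) or log2(Trim63 + 1) were fitted by limma with a trend on log2(normalized count + 1), over genes that had 10 or more counts in each library, leaving out the gene itself, with Benjamini-Hochberg adjusted p under 0.05. Fold values are understated for low genes by the pseudocount of 1. Correlations were tested two-sided over all 40320 pairings. Marker scores are means of z-scores. The members, gene lists and tests were chosen with earlier results of these data known. The text names all members, the 3 genes of each pathway list and of the disuse list with the smallest limma p on either gene, the 5 highest and 3 lowest r for Fbxo32 and for Trim63, and genes needed as markers, apart from some genes that are not reported here. Alternatives were TMM factors, library totals, a pseudocount of 5, no count filter, edgeR, DESeq2, the longest transcript and leaving out each mouse. The scalings of the 45 pairs and the counts of the gene lists under each alternative were added after seeing the data. The fits were tested on simulated data with known slopes. Software was limma 3.58.1, edgeR 4.0.16 and DESeq2 1.42.0 in R 4.3.3, and scipy 1.17.1, pandas 2.3.3, numpy 2.4.6 and matplotlib 3.10.9 in Python 3.11.15.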

Additional observations from a re-analysis of the deposited data

How the results depend on the processing

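The count of genes called on Trim63 was 5. It was 3 with TMM factors, 8 with no count filter, 231 with DESeq2 and 592 with library totals, and 0 to 113 with a mouse left out. On Fbxo32 it was 0, 16 with DESeq2 and 8 with library totals. With library totals the median slope of all genes was 0.24 on Trim63 and 0.25 on Fbxo32, against 0.0023 and -0.0039 before, so slopes on that scale are to be read from that shift. The r of Fbxo32 and Trim63 was 0.62 to 0.84 with a mouse left out, and its exact p was above 0.05 without mouse 4, 6, 7 or 8. The step between Fbxo21 and Traf6 was 0.27 log2 units with the longest transcript and 0.17 without mouse 5 (exact p = 0.047). For single relations, levels and steps, 421 other values kept their side of the threshold or, for levels, moved by less than the SD between mice, and 2 passed the threshold that had not before, both of Fbxo21 and Traf6. Some relations with marker scores that had not passed changed sign with a mouse left out. The cause of these differences was not tested. No paired analysis was possible because the labels give 1 group only. Counts are reads without molecular identifiers, and depth limits mainly Trim32, whose lowest count was 150. With 8 mice of 1 condition, slopes and correlations describe variation between mice and cannot tell a treatment effect.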
